A study of Homo sapiens with 14 samples.

Results

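The genes described here encode proteins that the liver secretes into blood plasma: carriers, clotting factors, their inhibitors, complement proteins, matrix-binding proteins and IGFBP1, a binding protein for insulin-like growth factors. They were taken by gene symbol, with no threshold on a measured value, and make up 50 of the 21574 rows of the expression table, in which each had a row of its own. The cells were labelled HepG2, an established human line from a liver tumour, and received either scrambled siRNA (control) or siADAR1, an siRNA against ADAR1 (KD). ADAR1, the product of ADAR, is the enzyme that changes adenosine to inosine in double-stranded RNA. The labels name no other treatment or genotype. Labels and methods call the siRNA transfection stable, and the methods also give a set length of silencing. Poly-A RNA of each condition was probed in vitro for PARS-seq with nuclease S1, which cuts unpaired bases, or RNase V1, which cuts paired bases, with 2 libraries for each condition and nuclease and 8 in all. Ribo-seq, which sequences the mRNA fragments held by ribosomes, had 2 libraries per condition, and RNA-seq had 1. Levels are given in RPKM, reads per kilobase of transcript scaled to the size of the library, a unit that allows levels of different genes to be compared per length. RPKM was listed per library for RNA-seq and Ribo-seq. For PARS-seq the authors listed a mean for each replicate, taken over its S1 and its V1 library, so 10 columns of RPKM were read in all.

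Hepatocytes make most of the proteins of plasma, and HepG2 cells are a common model of that secretion. Clotting runs as a cascade of proteases that ends with thrombin cutting fibrinogen, and serpins and the protein C and protein S system hold it in check. Complement is a second plasma cascade, which meets at C3, and C4b-binding protein limits it. Protein S circulates partly bound to the beta chain of C4b-binding protein, which ties both cascades together.

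ADAR, the gene targeted by the siRNA, was listed at 54.8 RPKM in the control RNA-seq library and at 15.4 in the KD library. In the PARS-seq means it stood at 40.7 and 46.8 in control and at 15.1 and 15.1 in KD. Ribo-seq gave 43.6 and 55.5 RPKM in control, and 8.73 and 44.0 in the libraries labelled KD replicate 1 and KD replicate 2. The library labelled KD replicate 2 was thus close to its control for the targeted gene, and the Ribo-seq fold changes of the plasma protein genes are given with and without it. The Ribo-seq libraries also differed by their number: across 11368 genes, log2 levels of libraries that share a number correlated at r = 0.962 and 0.951, and those of replicates within a condition at 0.794 and 0.84.

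Most of the plasma protein genes were at or near 0 in these cells. At a level of at least 1 RPKM in every column, 3 of the 50 were found (C4BPB, FN1 and VTN), or 6.0%, against 40.7% of all rows. At least 1 RPKM in any column was reached by 11 of the 50, or 22.0%, against 58.7% of all rows. The remaining 39 stayed under 1 RPKM in all 10 columns, and 25 of the 50 never reached 0.1. ORM2, FETUB, F11 and CFB were listed at 0 throughout. Together the 50 genes held between 0.0319% and 0.0851% of the summed RPKM of a column. The plot of levels by gene and column shows the few rows that carry signal.

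**Figure D1:**
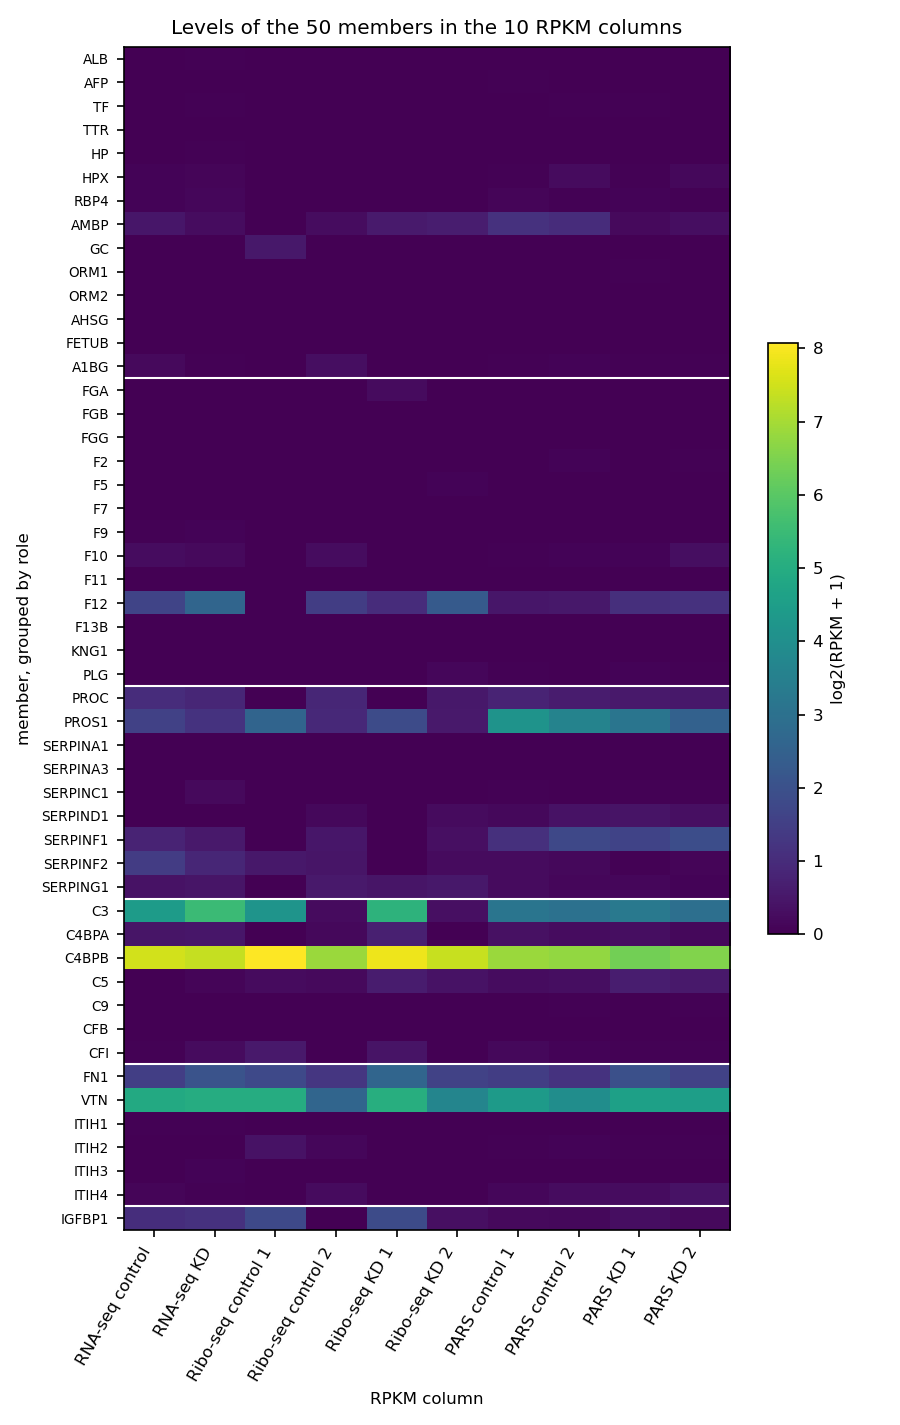
Heat map of log2(RPKM + 1) for the 50 genes (rows, grouped by role with white lines between groups) in the 10 RPKM columns (RNA-seq, Ribo-seq and PARS-seq means, control and KD). C4BPB is the brightest row with 81.8 to 268.9 RPKM, and 39 rows stay under 1 RPKM in every column.

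The carriers were close to absent. Albumin (ALB), the main protein of plasma, was listed at 0 in all 4 Ribo-seq libraries and in the control RNA-seq library, and at 0.0442 RPKM in the KD RNA-seq library. Its PARS-seq means were 0.00296 and 0.00352 in control against 0 in both KD columns. AFP, the fetal counterpart of albumin, was listed at 0 in every RNA-seq and Ribo-seq library and reached at most 0.0286 RPKM in a PARS-seq mean. Transferrin (TF), the iron carrier, transthyretin (TTR), which carries thyroid hormone, and haptoglobin (HP), which binds haemoglobin, had highest values of 0.0367, 0.0171 and 0.0231 RPKM. None of these 5 genes had a Ribo-seq value above 0. AMBP, the precursor of alpha-1-microglobulin and bikunin, was the only 1 of the 14 carriers to reach 1 RPKM, with PARS-seq means of 1.24 and 1.05 in control against 0.155 and 0.222 in KD. Its RNA-seq values were 0.394 in control and 0.208 in KD, and its Ribo-seq values 0 and 0.21 in control against 0.497 and 0.58 in KD.

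Among the 13 clotting factors, only F12 reached 1 RPKM. The fibrinogen chains FGA, FGB and FGG, whose product forms the clot, had highest values of 0.182, 0.00436 and 0.00399 RPKM, the first of these in Ribo-seq KD replicate 1. Prothrombin (F2), factor V (F5), factor VII (F7), factor IX (F9) and plasminogen (PLG), the precursor of the clot-dissolving protease, all stayed under 0.1 RPKM. Factor X (F10) reached 0.24 RPKM. Of the 9 inhibitors, SERPINA1, which encodes alpha-1-antitrypsin, was listed at 0.0133 and 0.00898 RPKM in RNA-seq and at 0 in the other 8 columns. PROS1, PROC, SERPINF1 and SERPINF2 reached 1 RPKM in at least 1 column. Inter-alpha-trypsin inhibitor heavy chains ITIH1 to ITIH4 had highest values between 0.0407 and 0.322 RPKM.

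The depth of these libraries sets what an absence means. Steps in the low RPKM values gave an estimate of 40700000 reads in the control and 30200000 in the KD RNA-seq library, and of 998000 to 3330000 in the Ribo-seq libraries, with 52.2% to 56.9% of the low values within 0.1 of a whole number of reads. At these depths, 3 reads of ALB would be worth about 0.0322 and 0.0435 RPKM in RNA-seq and 0.394 to 1.32 in Ribo-seq. A value of ALB under these levels would rest on fewer than 3 reads, and a value of 0 in Ribo-seq says less than a value of 0 in RNA-seq.

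The label of the cells was compared with other hepatocyte genes. Of 34 such genes outside the plasma proteins, 27 stayed under 1 RPKM in all columns, among them the apolipoproteins APOA1 and APOB, with highest values of 0.0821 and 0.001 RPKM. The other 7 passed 1 RPKM in at least 1 column. CPS1, the enzyme that opens the urea cycle, was the highest of the list at 49.8 to 541.8 RPKM, in a row shared with CPS1-IT1. HPD, an enzyme of tyrosine breakdown, stood at 6.97 to 140.1, CEBPA, a factor that drives hepatocyte genes, at 2.33 to 22.0, and FOXA1, a factor of liver and other epithelia, at 1.78 to 7.37. NR1I3, a nuclear receptor, ranged from 0 to 21.3, and the apolipoproteins APOA2 and APOC3 reached 2.12 and 1.34. KRT8 and KRT18, keratins of simple epithelia, and VIM, the mesenchymal filament protein, stood at 65.6 RPKM or more in every column, and CDH1, the epithelial cadherin, at 0.148 or less. Of the 7 epithelial genes, 4 (EPCAM, CDH1, CLDN4 and ESRP1) stayed under 1 RPKM throughout and 2, both keratins, were above it in every column. Of the hepatocyte genes, the secreted ALB, APOA1, APOB and TTR were thus at or near 0 in cells labelled HepG2, while CPS1, HPD, CEBPA and FOXA1 were above 1 RPKM in every column. The identity of the line was not tested, and low levels are those of the cells sequenced here. Of the markers of other cell types, 8 of 9 genes of blood cells, 5 of 5 of endothelial cells and 4 of 4 of squamous cells stayed under 1 RPKM throughout. Among 9 mesenchymal genes, 5 were at 1 RPKM or more in every column and 6 had a mean of at least 1 RPKM. Among 6 neural genes these counts were 0 and 3.

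Promoters of 39 of the 50 genes were matched by symbol in RefSeq sequences of GRCh38.p14, each from 250 bases before to 50 bases after a transcript start. They were searched on both strands for TATAAA, the letters of the TATA box, a general element of core promoters that was chosen after the levels were seen. It was present in 6 of the 39 genes, or 15.4%, against 14.0% of all 27305 gene symbols with a promoter, taking any listed start, so the share was close to that of all genes. Of the 39 genes, only 7 reached 1 RPKM in a column and 32 did not. The 6 with the motif were AFP, RBP4, ORM1, FETUB, F13B and CFB, all among the 32. C3, IGFBP1, SERPINF1 and SERPINF2 reached 1 RPKM but had no matched promoter. Whether the motif goes with the level was not tested. A match is a description of the letters and not a bound site. The promoters below are shown because ALB and AFP are neighbouring liver genes at or near 0 in these cells, C4BPA and C4BPB are adjacent genes for chains of 1 protein that differ widely in level, and PROS1 encodes their binding partner. Each is printed 5′ to 3′ on the strand of its gene, with TATAAA or its reverse complement in capitals. ALB is at chr4:73404037-73404336 (plus strand), AFP at chr4:73435971-73436270 (plus), C4BPA at chr1:207103983-207104282 (plus), the most upstream of 3 listed starts of C4BPB at chr1:207088610-207088909 (plus) and PROS1 at chr3:93973847-93974146 (minus).
ALB: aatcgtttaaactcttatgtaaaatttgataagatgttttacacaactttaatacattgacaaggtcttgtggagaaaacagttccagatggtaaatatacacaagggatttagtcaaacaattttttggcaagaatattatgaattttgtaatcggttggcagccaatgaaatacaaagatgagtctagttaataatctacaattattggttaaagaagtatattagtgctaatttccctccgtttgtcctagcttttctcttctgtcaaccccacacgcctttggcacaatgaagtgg
AFP: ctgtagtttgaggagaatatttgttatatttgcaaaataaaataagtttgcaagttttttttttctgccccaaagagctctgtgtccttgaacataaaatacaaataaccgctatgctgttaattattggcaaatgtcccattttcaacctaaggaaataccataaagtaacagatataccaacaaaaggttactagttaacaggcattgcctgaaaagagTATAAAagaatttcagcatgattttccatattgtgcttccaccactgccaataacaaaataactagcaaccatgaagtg
C4BPA: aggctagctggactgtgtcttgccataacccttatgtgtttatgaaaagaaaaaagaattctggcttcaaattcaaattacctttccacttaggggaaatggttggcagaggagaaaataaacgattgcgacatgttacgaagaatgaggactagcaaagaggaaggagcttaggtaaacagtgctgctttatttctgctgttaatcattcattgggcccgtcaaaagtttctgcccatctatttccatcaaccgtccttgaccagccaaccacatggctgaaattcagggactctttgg
C4BPB: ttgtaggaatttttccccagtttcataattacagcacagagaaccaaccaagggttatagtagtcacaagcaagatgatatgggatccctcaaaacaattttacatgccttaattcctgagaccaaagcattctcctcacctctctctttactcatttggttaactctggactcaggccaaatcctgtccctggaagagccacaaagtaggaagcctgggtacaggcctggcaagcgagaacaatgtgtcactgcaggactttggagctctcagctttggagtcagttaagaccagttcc
PROS1: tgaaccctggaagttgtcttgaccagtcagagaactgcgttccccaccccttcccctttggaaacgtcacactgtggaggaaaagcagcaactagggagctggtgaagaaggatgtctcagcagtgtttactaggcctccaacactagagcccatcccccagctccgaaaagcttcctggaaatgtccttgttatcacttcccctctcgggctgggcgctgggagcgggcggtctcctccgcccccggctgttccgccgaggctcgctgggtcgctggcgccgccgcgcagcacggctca
The motif began 29 bases before the start in AFP, and these letters were not in the windows shown for ALB, C4BPA, C4BPB and PROS1.

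C4BPB, the beta chain of C4b-binding protein, was by far the highest of the 50 genes. It was listed at 181.8 and 163.7 RPKM in control and KD RNA-seq. Ribo-seq gave 268.9 and 115.6 RPKM in control against 231.2 and 166.0 in KD. The PARS-seq means were 115.4 and 108.5 in control against 81.8 and 91.5 in KD. These values lay between the 96.0th and the 99.0th percentile of all rows in every column. C4BPA, the alpha chain that makes up most of the same protein, had 0.361 and 0.413 RPKM in RNA-seq and at most 0.635 in any column. Both genes lie next to each other on chromosome 1 of GRCh37, C4BPB at 207262205-207273338 and C4BPA at 207277578-207318317, so neighbours in the genome were far apart in level.

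VTN, vitronectin, an adhesion protein that also blocks the end of the complement cascade, stood at 28.7 and 30.7 RPKM in control and KD RNA-seq. Its Ribo-seq values were 31.1 and 5.2 in control against 32.7 and 11.7 in KD, and its PARS-seq means were 19.9 and 14.6 in control against 23.0 and 22.3 in KD. A protein-coding gene model on the same strand shares 329 of the 1904 exon bases of VTN (17.3%) and has no row, so reads of the pair cannot be told apart there. C3, the centre of complement, had 20.5 RPKM in control and 44.1 in KD RNA-seq. FN1, fibronectin, which links cells to matrix, had 1.84 and 3.18 RPKM in RNA-seq, 2.46 and 1.44 in control against 5.24 and 1.99 in KD Ribo-seq, and PARS-seq means of 1.75 and 1.25 in control against 2.92 and 2.01 in KD. IGFBP1 was seen in RNA-seq, at 1.09 and 1.22 RPKM, and in the Ribo-seq libraries numbered 1, at 2.43 in control and 2.59 in KD, whereas the other Ribo-seq libraries gave 0 and 0.252. Its PARS-seq means were 0.14 to 0.228.

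On GRCh37, all on the minus strand, VTN lies on chromosome 17 (26694305 to 26700110), C3 on chromosome 19 (6677715 to 6730573), FN1 on chromosome 2 (216225163 to 216300796), F12 on chromosome 5 (176829134 to 176843584) and PROS1 on chromosome 3 (93591895 to 93698847). The order of levels in the control RNA-seq library was C4BPB, VTN, C3, F12, PROS1, FN1, SERPINF2, IGFBP1 and PROC. FN1 and PROS1 were neighbours at 1.84 and 1.93 RPKM with no replicate to separate them. In the PARS-seq control means PROS1 lay above C3, at 16.8 and 11.3 RPKM against 7.74 and 7.09, and in the KD means below it, at 7.89 and 4.63 against 8.58 and 6.76. The plot of libraries for 6 of these genes shows how much the order depends on the assay.

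**Figure D2:**
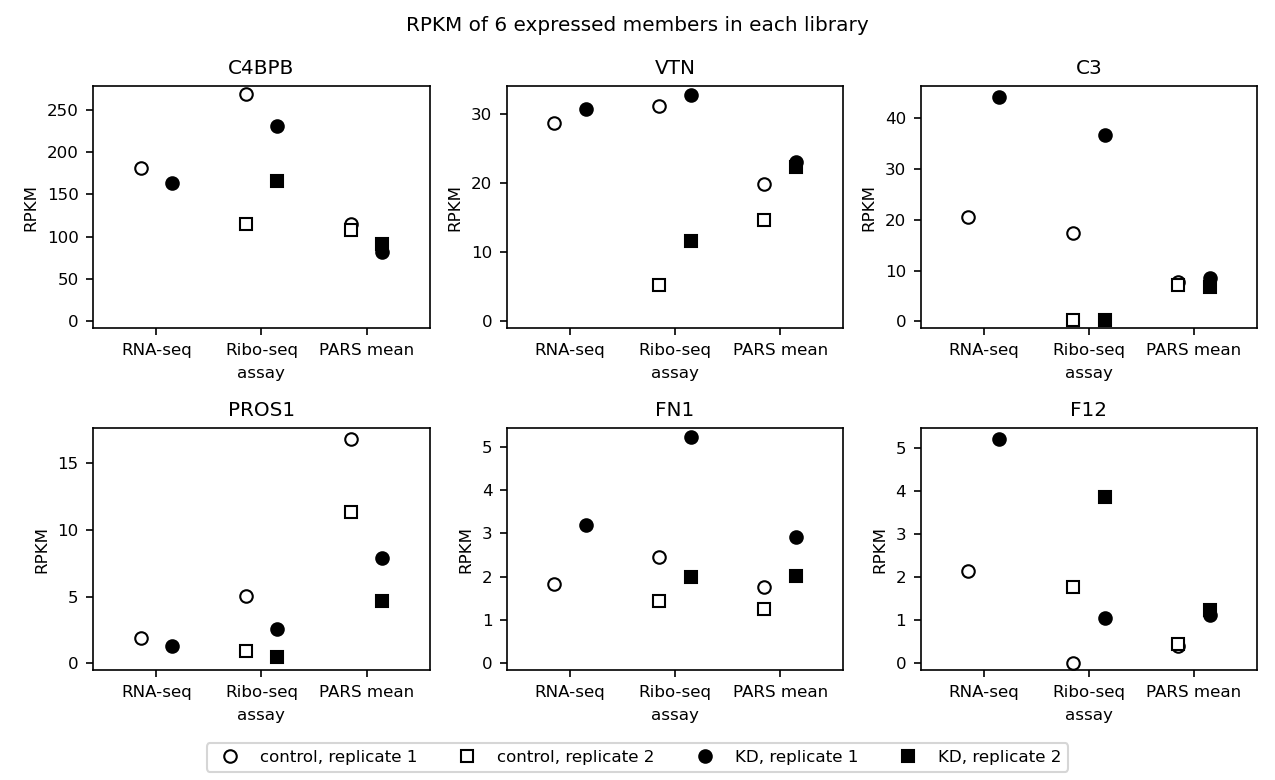
RPKM of C4BPB, VTN, C3, PROS1, FN1 and F12 (vertical axis, linear, one panel per gene) in RNA-seq, Ribo-seq and PARS-seq means (horizontal axis). White points are control, black points KD, circles replicate 1 and squares replicate 2. In Ribo-seq the C3 circles lie at 17.3 and 36.7 RPKM and the squares at 0.177 and 0.245.

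The comparison of KD with control asks whether knockdown of ADAR1 moved these genes. In RNA-seq, with 1 library per condition and no test, 8 of the 50 genes had a mean of at least 1 RPKM. Of these, 2 were past 1.5-fold on RPKM + 1 in the higher direction in KD, F12 and C3, and none in the lower direction. Over all 10944 genes past the same minimum, 4.47% were past that fold in the higher and 4.66% in the lower direction. The median log2 fold was 0.09 over the 8 genes and −0.01 over all genes. As these are bulk samples, fewer cells of a kind and less RNA per cell cannot be told apart.

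C3 was 2.10-fold higher on this scale in the KD than in the control RNA-seq library. It had 17.3 RPKM in control and 36.7 in KD in the Ribo-seq libraries numbered 1, and 0.177 and 0.245 in those numbered 2. About 90.4 and 270 reads stood behind the first pair of values and about 3.08 reads behind each of the second. In PARS-seq, C3 was at 7.74 and 7.09 RPKM in control against 8.58 and 6.76 in KD, and the ranges of both conditions overlapped. The higher C3 value in KD was therefore seen in RNA-seq and in the first Ribo-seq libraries and not in the PARS-seq means. On the annotation of GRCh37, 1357 of the 11577 exon bases of C3 are shared with a long non-coding gene on the same strand that has no row in the table.

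F12, the factor that starts contact activation of clotting, had higher values in KD in each assay, with an overlap in Ribo-seq. RNA-seq listed 2.14 RPKM in control and 5.2 in KD, a fold of 1.97 on RPKM + 1. Its PARS-seq means were 0.395 and 0.449 in control against 1.13 and 1.24 in KD, with no overlap, though their overall mean lay below the minimum of 1 RPKM for that comparison. In Ribo-seq the control libraries gave 0 and 1.76 RPKM and the KD libraries 1.04 and 3.85, from an estimated 0, 11.9, 2.98 and 18.9 reads, so that KD replicate 1 lay below control replicate 2. F12 shares 399 of its 5652 exon bases, or 7.06%, with GRK6 on the opposite strand, counting every annotated exon. With retained-intron and nonsense-mediated decay models left out, 257 of 2201 exon bases are shared, a larger part. GRK6 went from 23.0 to 20.4 RPKM in RNA-seq, from 6.69 and 5.92 to 6.86 and 7.45 in PARS-seq, and from 2.9 and 10.8 to 1.71 and 9.39 in Ribo-seq. The counting command in the study's methods has no strand option, so reads from either strand count for both genes where they overlap. The part of GRK6 in the F12 values was not tested.

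PROS1, protein S, the cofactor of activated protein C, went the other way. RNA-seq listed 1.93 RPKM in control and 1.29 in KD. The PARS-seq means were 16.8 and 11.3 in control against 7.89 and 4.63 in KD, which do not overlap. Ribo-seq gave 5.05 and 0.925 RPKM in control against 2.59 and 0.465 in KD, so that the conditions overlapped although each KD value was below the control value of the same number. On RPKM + 1, KD was 2.00-fold and 2.19-fold lower in the PARS-seq means and 1.28-fold lower in RNA-seq. PROS1 has a near-identical pseudogene, PROS2P, which has no row of its own. The study's methods kept uniquely aligned reads alone, and how this affected the PROS1 values was not tested.

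In the PARS-seq means, 6 of the 50 genes had a mean of at least 1 RPKM, and PROS1 was the only 1 past 1.5-fold in both replicates, in the lower direction. Over 11151 genes, 6.05% were lower in KD by this rule and 5.88% higher. By the looser rule that the KD and control means do not overlap, PROS1 and C4BPB were lower in KD and FN1 and VTN higher. That rule held for 27.2% of all genes in the lower and 33.3% in the higher direction, so 2 of 6 in each direction is close to the share over all genes. With no filter on low values, 43 of the 50 genes had a value above 0. Of these, 1 was higher (F12) and 2 were lower in KD (PROS1 and AMBP) past 1.5-fold in both replicates, against 3.59% and 3.72% of all 19046 such genes, and 8 were higher and 10 lower without overlap, against 28% and 24.8%. On RPKM + 1, C4BPB was 1.41-fold and 1.18-fold lower. FN1 was 1.42-fold and 1.34-fold higher and VTN 1.15-fold and 1.49-fold higher.

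**Figure D3:**
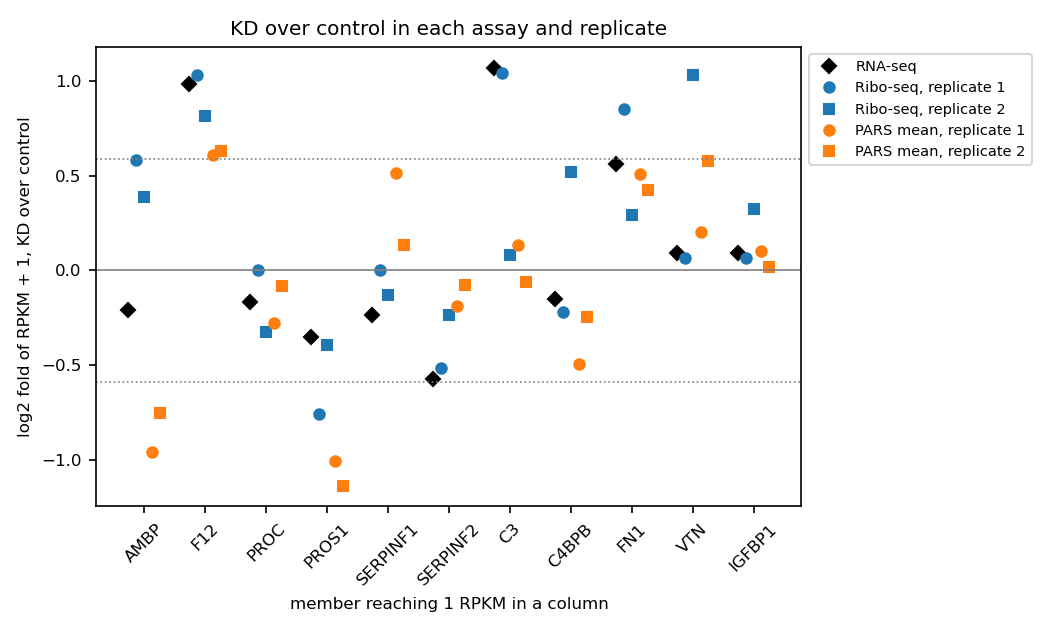
log2 fold of RPKM + 1, KD over control (vertical axis), for the 11 genes that reached 1 RPKM in a column (horizontal axis). Diamonds are RNA-seq, blue points Ribo-seq and orange points PARS-seq means, with circles for replicate 1 and squares for replicate 2, and dotted lines mark 1.5-fold. The 5 points of F12 lie between 0.61 and 1.03 and those of PROS1 between −1.13 and −0.35.

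The other genes that reached 1 RPKM did so in a single assay. SERPINF1, which encodes the secreted factor PEDF, had PARS-seq means of 1.17 and 2.38 in control against 2.09 and 2.72 in KD, RNA-seq values of 0.737 and 0.475, and Ribo-seq values of at most 0.393. SERPINF2, the inhibitor of plasmin, was listed at 1.73 RPKM in control and 0.833 in KD RNA-seq and at most 0.428 elsewhere. PROC, the precursor of activated protein C, had 1.04 and 0.818 RPKM in RNA-seq, PARS-seq means of 0.763 and 0.531 in control against 0.455 and 0.447 in KD, and Ribo-seq values of 0 and 0.808 in control against 0 and 0.447 in KD. For SERPINF1 the PARS-seq ranges overlapped, and for PROC they did not.

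Under 1 RPKM, the values of the other genes were small but not all 0. C5, which starts the assembly of the membrane attack complex, was listed at 0.018 RPKM in control and 0.0909 in KD RNA-seq, at 0.184 and 0.165 against 0.521 and 0.304 in Ribo-seq, and at 0.213 and 0.218 against 0.554 and 0.463 in the PARS-seq means. Its KD values lay above its control values in each assay, but the Ribo-seq values come from an estimated 1, 3.01, 4 and 4 reads. CFI, the protease that cuts C3b, had PARS-seq means of 0.135 and 0.0576 against 0.0344 and 0.0338, and the opposite order in RNA-seq, with 0.0341 in control and 0.169 in KD. SERPING1, the inhibitor of C1, SERPIND1, heparin cofactor II, and SERPINC1, antithrombin, had highest values of 0.455, 0.358 and 0.145 RPKM. Among the carriers, HPX, RBP4, GC and A1BG, of which the first binds haem, the next retinol and GC vitamin D, reached 0.182, 0.107, 0.443 and 0.243 RPKM. For GC and A1BG the highest value came from a Ribo-seq library, where 3 reads are worth a larger RPKM than in RNA-seq.

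Across Ribo-seq, limma on log2(RPKM + 1) with Benjamini-Hochberg adjustment called none of 10880 genes at an adjusted p of 0.05, a share of 0%, and 43 had an unadjusted p under 0.05, 29 higher and 14 lower in KD. None of the 7 plasma protein genes tested was among these 43. Their log2 fold changes were 0.92 ± 0.75 (SE) for F12, 0.57 ± 0.54 for FN1, 0.56 ± 1.99 for C3, 0.55 ± 0.94 for VTN, 0.19 ± 0.86 for IGFBP1, 0.15 ± 0.68 for C4BPB and −0.57 ± 0.78 for PROS1, with 2 libraries per condition. In this fit no change reached 2 times its error. With the replicate number as a block, limma called 143 of the 10880 genes, none of them a plasma protein gene. In that fit F12 had an SE of 0.41 at the same 0.92, with an unadjusted p of 0.0237 and an adjusted p of 0.386 by limma. The median over the 7 was 0.55 and over all genes 0.08. Without the library labelled KD replicate 2, 24 genes were called, all lower in KD and none of them a plasma protein gene. The KD arm then held 1 library, assumed to vary like the controls, and C3 was at 3.02 ± 0.87 with an adjusted p of 0.151 by limma, and FN1 at 1.10 ± 0.87. VTN was at 1.25 ± 1.02, IGFBP1 at 0.95 ± 1.01, C4BPB at 0.39 ± 1.60 and PROS1 at 0.07 ± 0.89, and F12 did not reach the minimum level in that setting. That C3 value sets KD replicate 1 against both controls, which differ by their number. Between the libraries numbered 1 the log2 fold of C3 was 1.04.

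Ribo-seq replicates of a condition differed widely for these genes. In control, 6 of the 7 differed by more than 2-fold on RPKM + 1 between replicates, against 37.6% of all genes tested, and in KD again 6 of 7, against 22.5%. The higher value was in replicate 1 for 6 of the 7 in both conditions, where 58.8% and 54.6% of all genes were higher. The ratio of replicate 1 to replicate 2 for C3 was 97.9 in control and 150.1 in KD, with about 3.08 reads in each library numbered 2. Those libraries had the larger estimated depth, at 3330000 reads in control and 2410000 in KD. The libraries numbered 1 had 998000 in control and 1410000 in KD. VTN had ratios of 5.98 and 2.81, PROS1 5.46 and 5.57 and C4BPB 2.33 and 1.39. F12 was the exception, with 0 against 1.76 RPKM in control and 1.04 against 3.85 in KD. What made the numbered libraries differ was not tested.

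The Ribo-seq level was then set against the RNA-seq level of the same condition, as log2((Ribo-seq + 1)/(RNA-seq + 1)), which takes translation relative to mRNA. Over 10140 genes the median of this ratio was −0.38 and −0.61 in the control and −0.36 and −0.44 in the KD libraries. C4BPB had ratios of 0.56 and −0.65 in control against 0.50 and 0.02 in KD. PROS1 had 1.05 and −0.60 in control against 0.64 and −0.65 in KD. VTN stood at 0.12 and −2.26 in control against 0.09 and −1.32 in KD, and C3 at −0.23 and −4.19 in control against −0.26 and −5.18 in KD. Replicates of a condition thus lay further apart than the conditions did. KD minus control of the mean ratio was −0.51 for C3, 0.45 for VTN, 0.30 for C4BPB, −0.22 for PROS1, 0.10 for IGFBP1, −0.06 for F12 and 0.01 for FN1, against a median of 0.10 over all genes. From the libraries numbered 1 alone, the difference was −0.03 for C3, VTN and IGFBP1, −0.07 for C4BPB, −0.40 for PROS1, 0.05 for F12 and 0.29 for FN1. From those numbered 2 it was −0.99 for C3, 0.93 for VTN, 0.23 for IGFBP1, 0.67 for C4BPB, −0.04 for PROS1, −0.17 for F12 and −0.27 for FN1, so 5 of the 7 genes differed in sign between the pairs. With a pseudocount of 0.1 in place of 1, the difference of the means turned to 1.06 for F12 and −0.01 for FN1 and was 0.79 for IGFBP1. In the libraries numbered 1 the ratios of C3 in control and KD differed by little (−0.23 and −0.26), as its Ribo-seq and RNA-seq levels were both higher in KD.

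**Figure D4:**
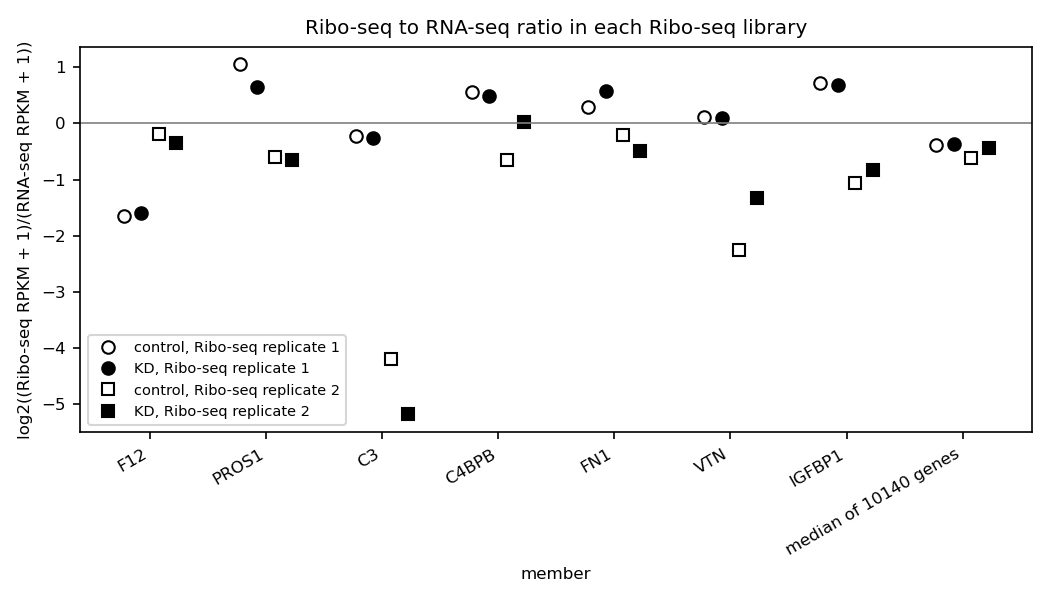
log2 ratio of Ribo-seq to RNA-seq, each as RPKM + 1 (vertical axis), in the 4 Ribo-seq libraries for 7 genes and for the median of 10140 genes (horizontal axis). White points are control and black points KD, circles replicate 1 and squares replicate 2. For C3 the circles lie at −0.23 and −0.26 and the squares at −4.19 and −5.18.

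Genes of both cascades outside the plasma protein list, taken by role, gave a background for these values. Of 29 other genes of clotting and fibrinolysis, 13 had a mean of at least 1 RPKM in PARS-seq, and 4 were lower in KD past 1.5-fold in both replicates and none higher, where 6.05% of all genes were lower and 5.88% higher. By the overlap rule 8 of the 13 were lower and 1 was higher (F3), against 27.2% and 33.3% of all genes. Those past 1.5-fold were TFPI, the inhibitor of the tissue factor pathway, at 40.1 and 37.9 RPKM in control against 19.9 and 17.5 in KD, SERPINE2, a thrombin inhibitor, at 40.5 and 40.0 in control against 10.9 and 15.5 in KD, and LMAN1 and MCFD2, which form the receptor that moves factors V and VIII out of the endoplasmic reticulum. Of 25 other complement genes with a row, 9 were tested in PARS-seq. By the 1.5-fold rule, C1R, C1S, C8G and CD59 were lower in KD and none was higher. C1S, a protease that starts the classical pathway, had means of 33.7 and 32.3 RPKM in control against 8.02 and 9.09 in KD. Its partner C1R had 15.3 and 13.7 in control against 8.15 and 7.3 in KD, but 28.6 in control and 52.8 in KD in RNA-seq, so the assays went opposite ways. By the overlap rule all 9 complement genes tested were lower in KD, where the share over all genes is 27.2%. In RNA-seq, 3 of 15 clotting genes tested were past 1.5-fold higher and 2 lower, against 4.47% and 4.66% of all genes, and of 9 complement genes C1R was higher and none lower. Ribo-seq with no replicate block called none of the 15 clotting and 8 complement genes it tested, in a fit that called no gene of any kind. Whether these lists differ from other genes was not tested.

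Read starts along the transcript were examined for PROS1, the only 1 of the 50 genes whose transcript identifier (uc003drb.4, 3595 bases) was tied to a symbol in the sources used here. With S1, the control libraries had 5475 and 3646 read starts and the KD libraries 2633 and 948. With V1, the control libraries had 5610 and 3369 and the KD libraries 3146 and 1488. Per 1000000 read starts on the transcripts listed in all 4 libraries of a nuclease, these were 51.9 and 32.3 against 20.5 and 10.7 for S1, and 49.5 and 28.9 against 14.7 and 12.1 for V1. For each nuclease both KD values lay below both control values. The libraries of either nuclease held 88565995 to 214576911 read starts on the transcripts compared.

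By limma with Benjamini-Hochberg adjustment over all transcripts, PROS1 fell by 1.46 ± 0.32 (SE) on the log2 scale in S1, with an adjusted p of 0.000124, and by 1.5 ± 0.32 in V1, with an adjusted p of 0.000121. The S1 test was limited to transcripts listed in S1 control replicate 1. That library lists 4722, where the other S1 libraries list 21052 to 21496. Over the 4721 tested, 18.6% were called lower in KD for S1 and 1.48% higher. Over 16885 transcripts, 7.9% were called lower for V1 and 2.05% higher. The median transcript itself moved, by −0.36 in S1 and −0.14 in V1, and with TMM scaling, which removed that shift, PROS1 was at −1.10 (adjusted p = 0.00644 by limma) and −1.34 (adjusted p = 0.0144). TMM scaling also changed the split of S1 calls, from 70 higher and 878 lower to 308 higher and 439 lower, and of V1 calls from 346 and 1334 to 660 and 1101. The call did not hold in S1 without KD replicate 2 (−0.99, adjusted p = 0.205 by limma) and in V1 without control replicate 1 (−1.12, adjusted p = 0.16). These read starts enter the PARS-seq means of the same libraries, so they are not independent of the RPKM values above.

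The read starts were packed into a small stretch of PROS1. Bases 1501 to 1650, or 4.17% of the length, held 58.3% to 61.8% of the S1 and 49.3% to 52.2% of the V1 read starts. Within it, bases 1532 to 1535 held 14.9% to 25% of all S1 read starts on the transcript and at most 0.178% of those of V1. Base 1550 showed the reverse, with 2.45% to 5.67% of the V1 and at most 0.152% of the S1 read starts. For each nuclease the peaks lay in the same stretch in control and KD, as the plot along the transcript shows. Across bases, Spearman's correlation was 0.511 to 0.577 between S1 replicates, 0.489 to 0.582 between V1 replicates, 0.464 to 0.573 between conditions at a shared number, and 0.237 to 0.376 between S1 and V1 libraries, over 3595 bases that share their coverage.

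**Figure D5:**
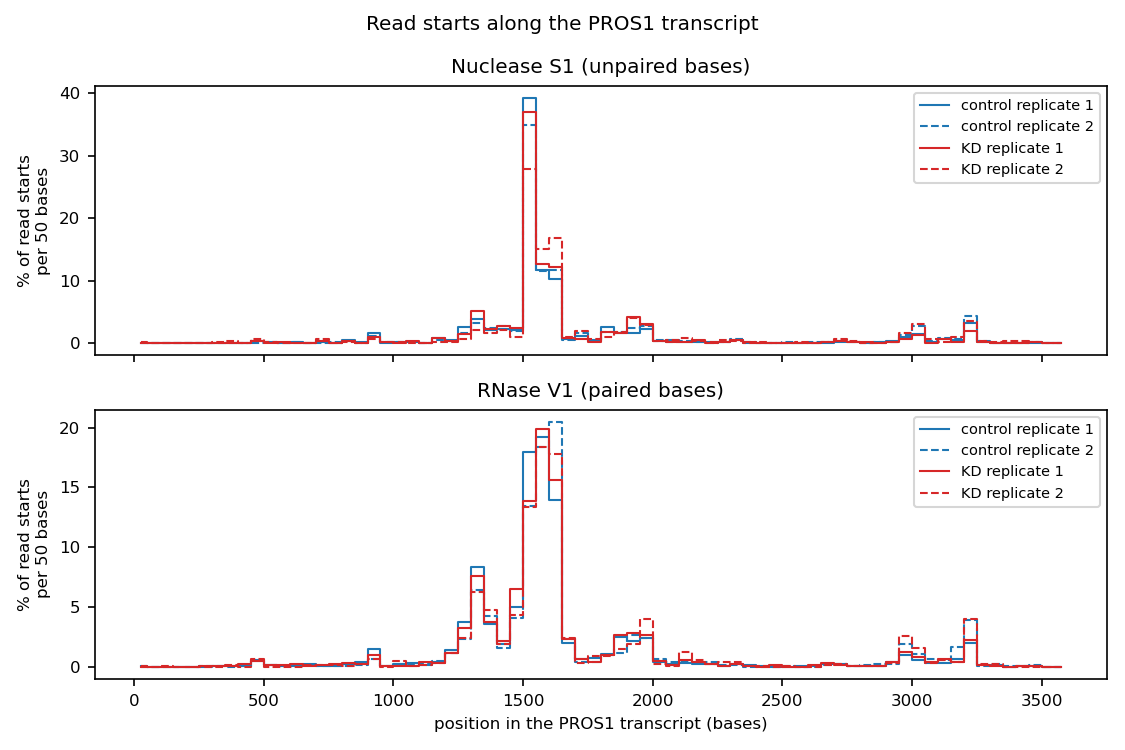
Share of the read starts of each library that fall in each 50 bases of the PROS1 transcript (vertical axis, %) against position in the transcript (horizontal axis, bases), for S1 above and V1 below. Blue lines are control and red lines KD, solid for replicate 1 and dashed for replicate 2. All 8 libraries peak between bases 1501 and 1650, which hold 49.3% to 61.8% of their read starts.

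This stretch was chosen after the profile was seen, and PROS1 was therefore measured again without it. Outside it, S1 read starts per 1000000 fell from 20.1 and 13.5 in the control libraries to 7.85 and 4.31 in the KD libraries, and those of V1 from 24.2 and 13.8 to 7.43 and 6.12. The log2 fold changes were −1.5 ± 0.37 in S1 (adjusted p = 0.00079 by limma) and −1.44 ± 0.32 in V1 (adjusted p = 0.000259), close to those of the whole transcript. Read starts were 19.1 and 11.7 per base inside the stretch and 0.795 and 0.467 outside it in the V1 control libraries. The PARS-seq mean of PROS1 was 7.3 times its RNA-seq level in control and 4.83 times in KD, while C4BPB, VTN and C3 had PARS-seq means of 0.361 to 0.616 times RNA-seq in control. Over 10929 genes with at least 1 RPKM in control RNA-seq the median ratio was 0.842, and 429 genes (3.93%) were at or above that of PROS1, among them F3 at 7.82. What part the stretch had in the ratio was not tested.

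The balance of V1 to S1 read starts on PROS1, which rises as more of a transcript is paired, showed no common direction. Its log2 ratio, scaled to the library totals, was 0.07 and −0.02 in control against −0.37 and 0.33 in KD, where the median transcript had −0.13 and −0.06 in control against −0.21 and 0.08 in KD. The KD replicates lay on both sides of the control values, and differed from each other by more than the conditions did.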

How the data were processed

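Cells labelled HepG2 were sequenced in 14 libraries of PARS-seq, Ribo-seq and RNA-seq. The submitters' processing notes name cutadapt, and reads were aligned with Bowtie2, to hg19/GRCh37 for RPKM and to UCSC knownCanonical transcripts for read starts. Genes were counted with coverageBed without a strand option, whereas read starts followed the read orientation. Tool versions are not given in the sources used here. The RPKM values were deposited by the authors per RNA-seq and Ribo-seq library, and for PARS-seq as the authors' means over the S1 and V1 library of a replicate. Read starts per base of each transcript were deposited for the 8 PARS-seq libraries, and the first S1 control file lists 4722 transcripts, to which S1 tests were limited. A symbol that occurred in 2 rows was dropped, leaving 21572 rows.

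The 50 genes, the other gene lists and the tests were chosen with earlier results of these data known. All 50 are accounted for, and genes with a mean of at least 1 RPKM over the 10 columns, and 10 well-known plasma proteins, were to be named with their values. Ribo-seq was tested with limma 3.58.1 (R 4.3.3; trend; two-sided) on log2(RPKM + 1) of genes with a mean of at least 1 RPKM. Folds of RPKM + 1 understate changes of low genes. Summed read starts were tested with limma on log2 of read starts, with 0.5 added, per 1000000 on the transcripts compared, for transcripts with at least 10 read starts (scaled to the median library) in 2 libraries and 15 in all. The script was tested on simulated data. P-values measure only the spread between 2 samples per group, for which an exact permutation test cannot go below 0.333, and read counts cover counting error only. C4A and C4B share rows and were not analysed here. The PROS1 identifier was taken from a supplementary spreadsheet of the study.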

Additional observations from a re-analysis of the deposited data

How the results depend on the processing

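The labels gave control and KD libraries the same replicate numbers but no shared batch. Same-numbered Ribo-seq libraries deviated together from their group means (r = 0.81 across genes), with only 2 pairs. With a replicate block, limma called 143 genes in Ribo-seq in place of 0, none of them a plasma protein gene. The block left the PROS1 calls in S1 and V1 in place.

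Leaving out 1 Ribo-seq library at a time gave 0 to 24 called genes, with 24 without KD replicate 2, and 0 plasma protein genes in each. Without control replicate 2, the Ribo-seq log2 fold changes turned to −1.42 for C3, −0.46 for C4BPB, −0.64 for VTN and −0.70 for IGFBP1, and without KD replicate 1 to −1.90 for C3, −0.09 for C4BPB and −0.16 for VTN. PROS1 turned to 0.25 without control replicate 1 and to 0.07 without KD replicate 2. With 1 library left out at a time, the values reached −1.40 for PROS1, 3.02 for C3, 0.76 for C4BPB, 1.73 for VTN and 0.95 for IGFBP1 in the other direction. F12 and FN1 kept their Ribo-seq direction under each alternative that gave a value, at 0.19 (without control replicate 1) to 2.30 (pseudocount 0.1) for F12 and 0.04 (without KD replicate 1) to 1.10 (without KD replicate 2) for FN1.

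At 0.1 RPKM, 5 genes were detected in every column in place of 3, and at 5 RPKM 2. In RNA-seq, a pseudocount of 0.1 added 1 gene lower in KD (SERPINF2) and FN1 to those higher, and a 2-fold threshold left 1 higher (C3). For the PARS-seq means, a pseudocount of 0.1 gave 1 gene higher in KD (FN1). With no filter on low values, 1 of 43 was higher (F12) and 2 lower (PROS1 and AMBP) past 1.5-fold, against 3.59% and 3.72% of all genes. By the overlap rule 8 of the 43 were higher and 10 lower, against 28% and 24.8% of all genes. With 1 replicate left out, each condition holds 1 mean and cannot overlap the other, so the overlap rule places all 6 genes, 3 to 4 as higher and 2 to 3 as lower, which says nothing about stability. The PROS1 log2 fold change ranged from −1.93 to −0.99 in S1 and from −1.89 to −1.12 in V1 with 1 library left out. Depth limits the low Ribo-seq values, where 0 cannot be told from 3 reads.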
